A study of Mus musculus with 12 samples.

Results

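The interleukin-6 family and its STAT3 signaling axis were represented by 7 genes of the 750 in the deposited nCounter table: the ligands Il6, Lif and Osm, the receptor chains Il6ra and Il6st, the transcription factor Stat3 and its feedback inhibitor Socs3. They were selected by gene symbol, and all 7 passed the filter on low values that left 689 genes for testing. RNA came from triple negative breast tumors of a K14-Cre mouse model with floxed alleles of Brca1 and Trp53 (Brca1 f/f and Trp53 f/f), in which Cre driven by the keratin-14 promoter deletes both genes in epithelial cells. Tumor chunks had been transplanted into the mammary fat pad of immune-competent syngeneic FVB/129P2 females, so each RNA sample mixed deleted tumor cells with intact host cells, and the vehicle tumors carried the same deletions. The sources used here do not say how many donor tumors the chunks came from.

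Each of the 4 groups held 3 tumors, all harvested 3 days after the start of treatment. Vehicle mice received DMSO in saline intraperitoneally and saline in the tumor. The ADU-S100 group received 50 µg of this STING agonist in a single 40 µl intratumoral injection on the first day, with intraperitoneal DMSO. The olaparib group received the PARP inhibitor at 50 mg/kg intraperitoneally every day, with intratumoral saline, and the combination group received both agents. Tumors are named here by group and by the tumor number in the labels. Because whole chunks were measured, fewer cells of a type and less RNA per cell cannot be told apart. The p-values measure the spread between these tumors.

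IL-6, LIF and oncostatin M (OSM) are cytokines that signal through receptor complexes sharing gp130, the protein encoded by Il6st. The IL-6 receptor alpha chain, encoded by Il6ra, gives IL-6 its specific binding. Ligand binding activates Janus kinases, which phosphorylate STAT3, and STAT3 then induces Socs3, whose product binds gp130 and damps the signal. In tumors the ligands come from cancer, stromal and myeloid cells alike, and the transcript levels measured here do not report STAT3 phosphorylation.

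Lif and Osm are neighboring genes on chromosome 11 of the mouse (GRCm38.p6, 4257568 to 4272514 and 4236785 to 4241026), and Stat3 and Socs3 lie further along the same chromosome. RefSeq promoter windows of this build were matched for 6 of the 7 genes, Osm being the other. The 250 bases before the transcript start were searched for TTCNNNGAA, the letters bound by STAT dimers, and for TGANTCA, the letters bound by AP-1. Both motifs read alike on the 2 strands. TTCNNNGAA was found in 1 of the 6 promoters, that of Socs3, against 7.02% of 32851 RefSeq promoter windows cut to the same length. TGANTCA was found in 2, those of Il6 and Lif, against 6.75% of the windows. A match is a description of the letters and not evidence of binding. The promoters that hold a match are shown 5′ to 3′, with the matching letters in capitals. The Socs3 window (chr11:117969367-117969616, minus strand) lies inside the annotated extent of the gene. The Lif window is chr11:4257318-4257567 and the Il6 window is chr5:30012864-30013113, both on the plus strand.
Socs3: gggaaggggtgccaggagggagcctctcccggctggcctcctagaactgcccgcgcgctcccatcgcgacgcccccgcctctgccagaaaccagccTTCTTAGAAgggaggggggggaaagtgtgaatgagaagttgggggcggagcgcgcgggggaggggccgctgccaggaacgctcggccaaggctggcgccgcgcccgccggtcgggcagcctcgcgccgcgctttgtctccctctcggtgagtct
Lif: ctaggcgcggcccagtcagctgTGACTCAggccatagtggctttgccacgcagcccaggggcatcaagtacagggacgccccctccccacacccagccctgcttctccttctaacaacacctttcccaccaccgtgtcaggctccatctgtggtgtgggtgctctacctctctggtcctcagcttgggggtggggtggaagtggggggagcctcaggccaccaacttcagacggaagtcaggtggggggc
Il6: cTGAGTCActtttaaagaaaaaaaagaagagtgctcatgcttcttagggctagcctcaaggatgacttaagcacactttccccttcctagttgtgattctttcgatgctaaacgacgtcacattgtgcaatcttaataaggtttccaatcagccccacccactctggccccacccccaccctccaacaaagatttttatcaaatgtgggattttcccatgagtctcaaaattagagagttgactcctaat

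Values are normalized counts, meaning probe counts that the authors multiplied by 1 factor per tumor to equalize control and housekeeping probes. The factor ran from 0.589 to 10.5, and the recovered total of probe counts from 106206 to 1519471 per tumor. Olaparib tumor 1517 had the largest factor and the lowest total. The 3 combination tumors had nearly equal factors, from 0.810 to 0.824, whereas the ADU-S100 tumors lay between 1.43 and 2.85. These counts are estimates, obtained by dividing each tumor's values by its factor, and background correction by the authors may have altered them. By this estimate the ligands Il6 and Osm were measured with few counts, 5 to 34 and 8 to 49 per tumor, and the lowest count of the other members was 57. The Y-linked Usp9y, a low reference in female hosts, gave 1 to 9 counts, and Il6 and Osm lay above it in 12 of 12 tumors. Il6 in olaparib tumor 1517 (5 counts) and ADU-S100 tumor 1512 (9), and Osm in tumor 1517 (8), were within the Usp9y range over all tumors. In tumor 1517 the 95% Poisson interval of Il6, 1.62 to 11.7, overlapped that of Usp9y, 0.025 to 5.57. Lying above Usp9y is therefore not read as detection in every tumor.

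Lif was the ligand whose groups separated on the deposited scale, though not after rescaling to a common median count. Its normalized count was 321, 470 and 389 in vehicle tumors 1269, 1529 and 1536. It was 795, 1466 and 626 in ADU-S100 tumors 1506, 1512 and 1513. It was 908, 597 and 509 in olaparib tumors 1510, 1517 and 1521. Every tumor given a single agent therefore lay above every vehicle tumor. The combination tumors 1251, 1270 and 1539 had 441, 204 and 414, overlapping vehicle and lying below every tumor of either single agent.

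Il6, the family's founding cytokine, showed no such separation. Its normalized counts were 8.87, 34.2 and 23.6 with vehicle and 76.9, 17.7 and 29.96 with ADU-S100. They were 19.5, 52.4 and 9.43 with olaparib and 19.4, 13.2 and 16.4 with the combination. All groups overlapped, and the highest value, in ADU-S100 tumor 1506, rested on an estimated 27 counts. Osm, a ligand made largely by myeloid cells, had 20.5, 59.5 and 32.6 with vehicle and 91.1, 94.3 and 38.5 with ADU-S100. It had 35.1, 83.8 and 18.3 with olaparib and 39.7, 19.8 and 30.3 with the combination. ADU-S100 tumors 1506 and 1512 were the highest of the 12, but the third ADU-S100 tumor fell within the vehicle range.

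Il6ra, the chain that binds IL-6, had 358, 712 and 378 with vehicle and 1632, 923 and 645 with ADU-S100. With olaparib it had 1968, 2609 and 270, so tumors 1510 and 1517 were the highest of all and tumor 1521 the lowest of all. The combination tumors had 297, 530 and 392, all below the ADU-S100 tumors. Il6st, encoding the shared chain gp130, had 324, 1493 and 421 with vehicle and 1424, 530 and 522 with ADU-S100. It had 651, 4160 and 296 with olaparib and 376, 604 and 512 with the combination. A single tumor stood far above the others in each group except the combination, and no group separated from another.

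Stat3 spanned a 2.36-fold range across the 12 tumors on the deposited scale, while the other members spanned from 5.16-fold for Osm to 14.0-fold for Il6st. After rescaling to a common median the ranges were 2.80-fold for Stat3, 2.93-fold for Il6 and up to 7.29-fold for Il6ra. Its counts were 4477, 4167 and 4370 with vehicle, 6041, 3464 and 6649 with ADU-S100, 8165, 7524 and 4742 with olaparib, and 6632, 4036 and 5924 with the combination. The olaparib tumors all lay above the vehicle tumors, whose coefficient of variation was 3.63% on the deposited scale. After rescaling, the vehicle tumors ran from 3118 to 7458 and overlapped the olaparib tumors at 3967 to 8720. Socs3, the feedback inhibitor, had 149, 326 and 244 with vehicle and 612, 550 and 348 with ADU-S100. It had 444, 1258 and 165 with olaparib and 242, 149 and 248 with the combination. The ADU-S100 tumors lay above all vehicle and all combination tumors, and the olaparib tumors overlapped every other group.

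**Figure D1:**
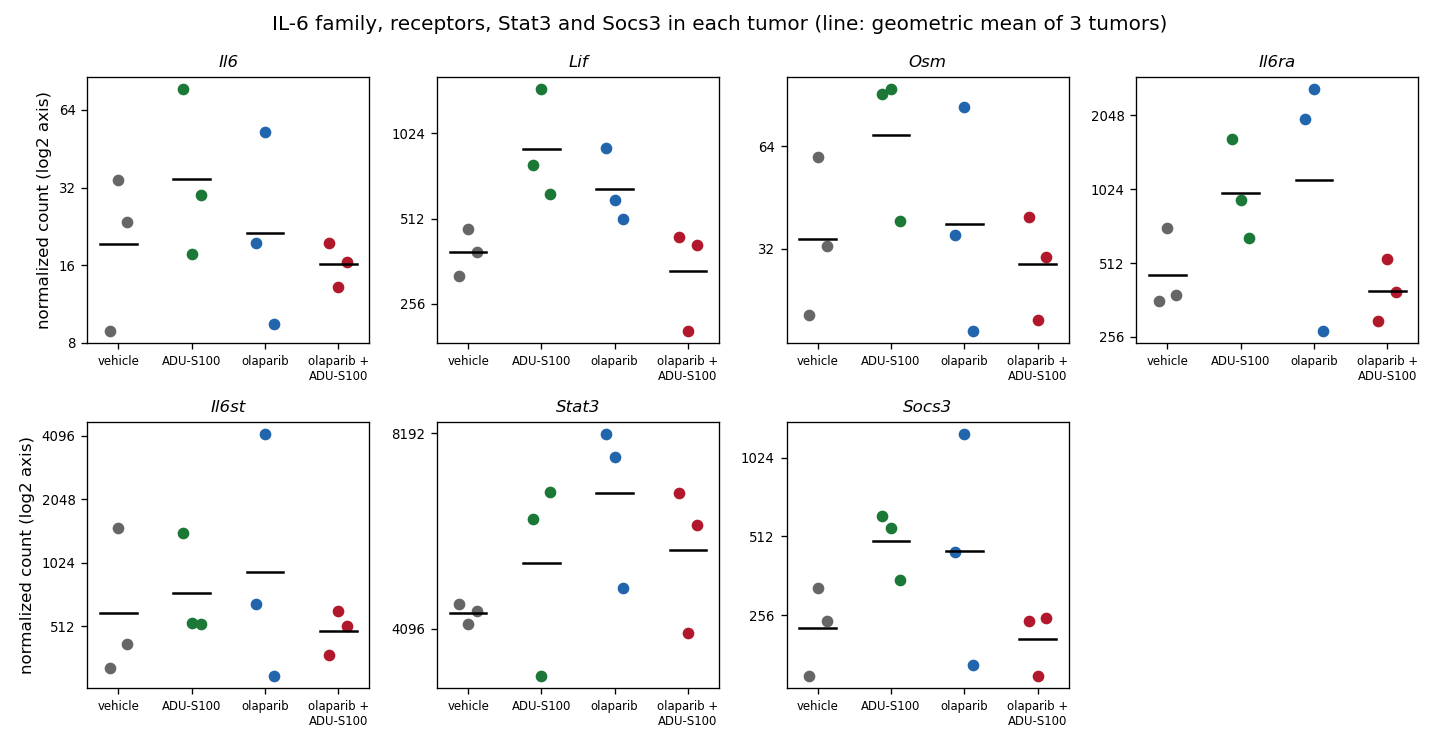
Normalized count of each of the 7 genes (y axis, log2) in each tumor (points) by treatment group, with the geometric mean of the 3 tumors as a line. Lif lay between 509 and 1466 in the single-agent tumors and between 204 and 470 in the vehicle and combination tumors.

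The effect of the STING agonist alone was tested by comparing ADU-S100 with vehicle tumors on log2(normalized count + 1) in limma. All 7 members had a higher mean with ADU-S100 (5 of 7 after rescaling each tumor to a common median count), but none passed an adjusted p of 0.05, and neither did any of the other genes (0% of 689 called). Lif had the lowest p, at a log2 fold change of 1.21 ± 0.46 (SE, n = 3 per group; limma adjusted p = 0.809). The log2 fold changes were 1.11 for Il6ra, 1.10 for Socs3, 0.998 for Osm, 0.80 for Il6, 0.32 for Il6st and 0.26 for Stat3. Of all genes, 78.2% had the higher mean with ADU-S100. The median over all genes was 0.44, and 5 of the 7 members lay above it. With the tumors rescaled to a common median count, Il6st and Stat3 turned to -0.18 and -0.24 and Lif stood at 0.71. With the log2 scaling factor of the tumor as a term, Lif stood at 1.12, Il6ra at 0.19, Socs3 at 0.28, Osm at 0.31, Il6 at 0.041, Il6st at -0.89 and Stat3 at 0.12. At an unadjusted p below 0.05, 1 member stood beside 4.79% of all genes, and 2 members, Lif and Socs3, had groups that did not overlap beside 14.9% of all genes.

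The comparison of olaparib with vehicle addressed the PARP inhibitor alone. All 7 members again had the higher mean with the drug (5 of 7 after rescaling), beside 74.6% of all genes. No gene passed the adjusted threshold in limma (0% called). The log2 fold changes were 1.28 for Il6ra, 0.98 for Socs3, 0.74 for Lif, 0.66 for Il6st, 0.61 for Stat3, 0.15 for Osm and 0.14 for Il6, with adjusted p-values of 0.582 or more. The median over all genes was 0.45, and with rescaling to a common median Il6 and Osm both turned to -0.22. With the log2 scaling factor as a term, Il6ra stood at 0.21, Socs3 at 0.024 and Lif at 0.64, while Il6, Il6st and Osm turned to -0.75, -0.75 and -0.66. No member had an unadjusted p below 0.05, beside 7.26% of all genes, and 2 members, Lif and Stat3, had groups that did not overlap, beside 4.79% of all genes. The result turned on tumor 1521, which had the lowest value of the olaparib tumors in all 7 members. Without it, Il6ra passed the threshold at a log2 fold change of 2.30 (limma adjusted p = 0.0295), as did 7.98% of all genes. Without tumor 1517, Il6, Il6st and Osm stood at -0.48, -0.42 and -0.42.

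The combination did not separate from vehicle for any of these genes. Of the 7 members, 6 had a lower mean with both agents than with vehicle, with log2 fold changes of -0.27 for Il6st, -0.25 for Il6, -0.24 for Osm, -0.22 for Lif, -0.21 for Il6ra and -0.13 for Socs3. Stat3 stood at 0.32. All 7 had a limma adjusted p of 0.989, and no gene of the panel was called (0%). The 95% confidence interval ran from -1.22 to 0.79 for Lif and from -2.23 to 1.69 for Il6st. Of all genes, 65.3% had the higher mean with the combination. The median over all genes was 0.21, above every member except Stat3. No member had an unadjusted p below 0.05 or groups that did not overlap, beside 7.69% and 20% of all genes. Leaving out vehicle tumor 1529 turned Il6, Il6ra, Il6st, Osm and Socs3 to between 0.10 and 0.40. Leaving out combination tumor 1270 turned Lif, Osm and Socs3 to 0.14, 0.021 and 0.10. These 3 comparisons share the vehicle tumors.

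Adding olaparib to ADU-S100 was examined by setting the combination against ADU-S100 alone. Lif was lower in the combination by a log2 fold change of -1.43 ± 0.46 (SE, n = 3 per group; limma adjusted p = 0.492). Il6ra stood at -1.32 and Socs3 at -1.23, and these 3 members had groups that did not overlap, all lower in the combination. That pattern was common in the panel, since 31.3% of all genes did not overlap here and 9.14% had an unadjusted p below 0.05. With the log2 scaling factor as a term these stood at -1.33 for Lif, -0.31 for Il6ra and -0.33 for Socs3, and Il6st turned from -0.59 to 0.74. The other 4 members ranged from -1.24 for Osm to 0.06 for Stat3, which turned to -0.11 under quantile normalization, none was called (0% of genes), and the median over all genes was -0.22. With rescaling to a common median, Il6ra, Socs3 and Osm were the non-overlapping members, beside 32.9% of all genes, while the Lif groups met, at 424 in the lowest ADU-S100 tumor and 428 in the highest combination tumor. Under that scaling Il6ra was 766 to 941 with ADU-S100 alone, against 533 to 597 with vehicle and 288 to 564 with the combination. Il6ra was then the only member that did not overlap between ADU-S100 and vehicle, beside 12.2% of all genes.

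Against olaparib alone, all 7 members had the lower mean in the combination, from -1.49 for Il6ra to -0.29 for Stat3, although Il6 turned to 0.26 under quantile normalization. Leaving out olaparib tumor 1517 turned Il6, Il6st and Osm to 0.23, 0.15 and 0.18, and the log2 scaling factor as a term turned them to 0.57, 0.60 and 0.50. With the tumor number series as a term, Il6 and Osm stood at 0.14 and 0.008. Lif stood at -0.96 ± 0.46 (SE, n = 3 per group; limma adjusted p = 0.594) and was the only member whose groups did not overlap, beside 12.8% of all genes. No gene was called (0%), and 7.26% had an unadjusted p below 0.05 with no member among them. The median over all genes was -0.15, and 41.4% of all genes had the higher mean in the combination. Without olaparib tumor 1521, Il6ra passed the threshold at -2.52 (limma adjusted p = 0.0281), beside 7.84% of all genes. With rescaling to a common median no member separated here, in olaparib against vehicle or in the combination against vehicle, beside 16.5%, 5.22% and 17% of all genes.

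Whether the effect of one agent depended on the other was tested as the interaction, the log2 fold change of the combination over ADU-S100 minus that of olaparib over vehicle. All 7 members had a negative value, meaning that the combination lay below the sum of the single effects, although Stat3 turned to 0.04 with rescaling to a common median, and Il6, Il6st and Osm to 0.53, 1.49 and 0.19 with the log2 factor as a term, and Il6 was also positive under quantile normalization. The median over all genes was also negative, at -0.55, and 30.9% of all genes had a positive value. Lif stood at -2.17 ± 0.65 (SE, 3 tumors per group; limma adjusted p = 0.346), the 8th lowest p of the 689 genes. Il6ra stood at -2.60 and Socs3 at -2.22, both with an adjusted p of 0.411. No gene was called (0%), and the 3 members with an unadjusted p below 0.05 stood beside 10.9% of all genes. With the tumor number series as a term, 21 of 689 genes had such a p, where 75 did without it. Without olaparib tumor 1521 all 3 passed the threshold, with adjusted p-values of 0.0449 for Lif, 0.0163 for Il6ra and 0.0285 for Socs3, as did 12.5% of all genes. The remaining members were Osm at -1.38, Il6st at -1.25, Il6 at -1.19 and Stat3 at -0.55.

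**Figure D2:**
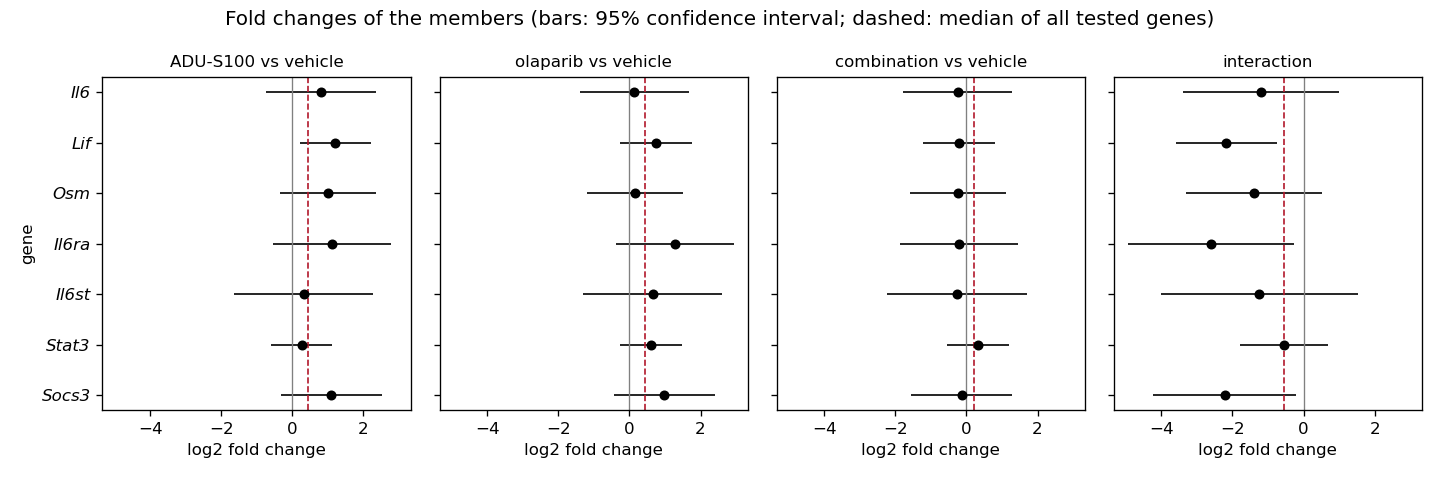
Log2 fold change (x axis) of each of the 7 genes (y axis) in limma for the 3 comparisons with vehicle and for the interaction, with bars for the 95% confidence interval and a dashed line for the median of all tested genes. The intervals of Lif, Il6ra and Socs3 lay below 0 in the interaction before adjustment, and those of all 7 genes spanned 0 for the combination against vehicle.

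Averaged over the other agent, neither drug set the members apart. With against without ADU-S100 the members ranged from -0.31 to 0.31, and with against without olaparib from -0.55 to 0.34. In both, no gene was called (0%). No member had an unadjusted p below 0.05, beside 3.05% and 7.55% of all genes, and no member had groups that did not overlap, beside 0.145% and 0%.

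The levels moved with the scaling factor of the tumor. Over the 12 tumors the log2 level of Socs3 had a Pearson r of 0.954 with the log2 factor, Il6ra 0.916 and Il6st 0.900. Osm had 0.787 and Il6 0.754, while Lif had 0.517 and Stat3 0.445. After rescaling to a common median, the same correlations were 0.742, 0.720, 0.834, 0.433, 0.484, -0.07 and -0.48. These are descriptions over tumors in which both quantities share the factor. With the log2 factor as a term in the model, the interaction stood at -1.97 for Lif (limma adjusted p = 0.452), -0.52 for Il6ra and -0.35 for Socs3. The factor's part in the levels of the members was not tested beyond this term.

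**Figure D3:**
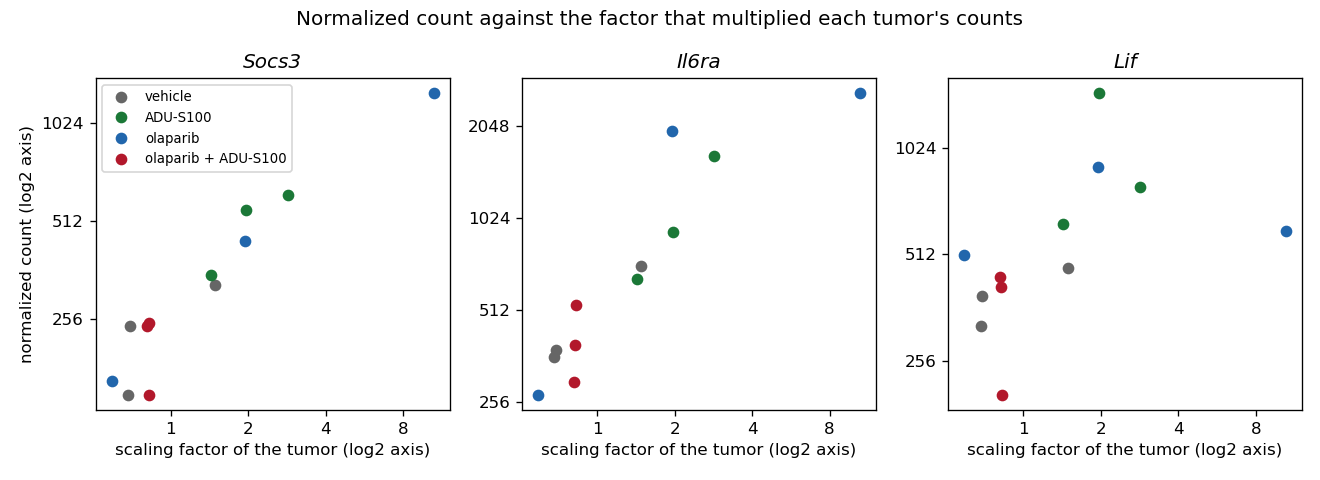
Normalized count of Socs3, Il6ra and Lif (y axes, log2) against the scaling factor of the tumor (x axis, log2), with 1 point per tumor colored by group. Socs3 and Il6ra climbed along the factor from 0.589 to 10.5, whereas olaparib tumor 1517, which had the largest factor, had a Lif count of 597.

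Genes with the pattern most like the low-count ligands and Socs3 over the 12 tumors were found by Pearson r on the log2 scale. Il6 was most like Cd97 (r = 0.933), Siglec1 (0.926) and Cxcl14 (0.925). Osm was most like Trem1 (0.908), Mapk11 (0.904) and Timd4 (0.903). Socs3 was most like Igf1r (0.963), Ifna1 (0.956) and Nos2 (0.955). All of these shared the tumors' factors, and after scaling to the same median r fell to between 0.658 for Timd4 with Osm and 0.913 for Igf1r with Socs3.

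Among the other genes of the pathway, none was called in any comparison. Of the other genes of family ligands, Il11 and Ebi3 were tested. Ebi3, a subunit of IL-27, stood at 0.26, -0.23 and 0.64 against vehicle for ADU-S100, olaparib and the combination. Il11, another gp130 cytokine, had a mean of 7.56 ± 1.39 with vehicle, 28.9 ± 12.4 with ADU-S100, 32.3 ± 36.1 with olaparib and 6.005 ± 0.991 with the combination (SD, n = 3). These levels rested on an estimated 6 to 15 counts per tumor, close to the 1 to 9 counts of Usp9y, and in combination tumor 1251 Il11 had 6 counts where Usp9y had 9, so no order of groups is read from them. Its receptor chain gene Il11ra1 had the same signs as Il6ra, at 0.89, 0.88 and -0.64 against vehicle for ADU-S100, olaparib and the combination. Of the 4 Janus kinases, Tyk2 stood at 1.71 for ADU-S100 over vehicle (limma adjusted p = 0.809) and lay between 264 and 301 in the combination tumors. Jak3 stood at 1.29, Jak1 at -0.09 and Jak2 at -0.12 for ADU-S100 over vehicle, so 2 of the 4 kinases had the higher mean.

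Other cytokines and receptors that activate STAT3, such as IL-10 and the G-CSF receptor, were represented by 10 tested genes. All 10 had a higher mean with ADU-S100 than with vehicle, with a median log2 fold change of 1.13, where 78.2% of all genes were higher with a median of 0.44. With olaparib 9 of the 10 were higher, with a median of 1.19 beside 0.45 for all genes, and with the combination 9 were, with a median of 0.62 beside 0.21. Csf3r, the G-CSF receptor of neutrophils, stood at 1.56 with ADU-S100 and 1.23 with the combination (limma adjusted p = 0.809 and 0.608), and Il23a at 0.89 with ADU-S100. Il22ra1, a chain of the IL-22 receptor, stood at 2.46 with olaparib (limma adjusted p = 0.577). Several of these genes rested on few counts. With olaparib the lowest estimated count was 14 for Il22ra1, 5 for Il10, 3 for Csf3r and 6 for Il23a. For Il10 it was 4 with vehicle and with ADU-S100. Usp9y gave 1 to 9. These levels share the tumors' scaling factors, and no rescaled values are given for this list, so no order of groups is read from Il10 or Il22ra1. Genes reported to respond to STAT3 were represented by 22 tested genes, which were not tested as a set. Their median was 0.43, 0.27 and 0.25 for ADU-S100, olaparib and the combination, beside 0.44, 0.45 and 0.21 for all genes. Of these 22, Bcl2l1 (1.25), Muc1 (1.87) and Lbp (-1.62) had an unadjusted limma p below 0.05 with olaparib, beside 7.26% of all genes. Il1rn (1.37) did with the combination, 1 of 22 beside 7.69%. With ADU-S100 there were 0, beside 4.79%. For the combination against olaparib Il1rn, Lbp and Lcn2 did, 3 of 22 beside 7.26%. Against ADU-S100 Lbp alone did, beside 9.14%. Lbp, the LPS-binding acute-phase protein, had an interaction of 3.15 (limma adjusted p = 0.346), opposite in sign to that of the 7 members. Of the 22 genes, however, 16 had a negative interaction, with a median of -0.54 beside -0.55 for all genes.

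Socs1, the other measured gene of the SOCS family, which restrains interferon signaling, had a different order of groups from Socs3. Its normalized counts were 136, 146 and 94.9 with vehicle and 208, 112 and 98.4 with ADU-S100. They were 79.9, 136 and 160 with olaparib and 251, 306 and 237 with the combination, above each of the other 9 tumors on the deposited scale. After rescaling to a common median, olaparib tumor 1521 stood at 238, above combination tumor 1539 at 234. The log2 fold change of the combination over vehicle was 1.09 ± 0.42 (SE, n = 3 per group; limma adjusted p = 0.472). Within a tumor, where no scaling matters, log2(Socs1/Socs3) was -0.89 ± 0.66 with vehicle, -1.89 ± 0.37 with ADU-S100, -1.91 ± 1.66 with olaparib and 0.34 ± 0.61 with the combination (SD, n = 3). The combination tumors lay above all vehicle and all ADU-S100 tumors and overlapped olaparib tumor 1521 alone. This ratio was chosen after the values were seen and is given without a test.

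**Figure D4:**
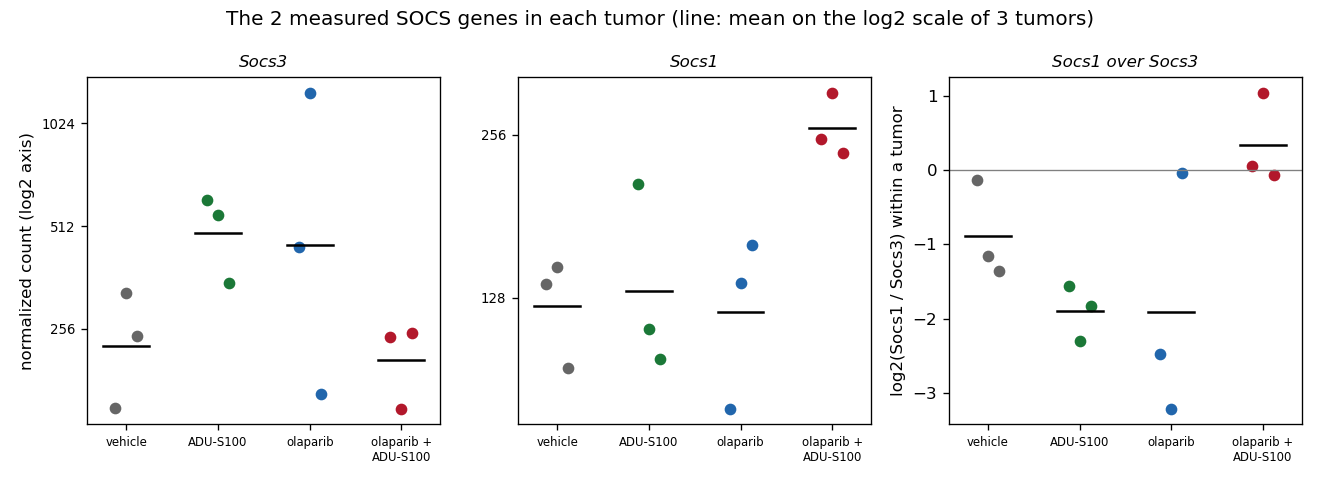
Normalized counts of Socs3 and Socs1 (log2 axes) and the log2 ratio of Socs1 to Socs3 within each tumor, by group, with lines for the mean on the log2 scale of 3 tumors. Socs1 lay between 237 and 306 in the combination tumors, where Socs3 lay between 149 and 248.

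Markers of cells that make or receive these cytokines were summed in each tumor, and no gene of these lists was called in any comparison. Their part in the levels of the members was not tested. The summed normalized count of 8 neutrophil genes was 1079 to 2229 with vehicle, 1958 to 7782 with ADU-S100, 744 to 3429 with olaparib and 1613 to 1801 with the combination. That of 7 fibroblast and stroma genes was 18272 to 93873, 36723 to 60505, 7220 to 30694 and 15508 to 29939 in the same order. That of 7 macrophage genes was 3422 to 6475, 3986 to 7662, 3452 to 6675 and 4709 to 6366. That of 9 T cell genes was 107 to 230, 177 to 427, 139 to 618 and 348 to 563. That of 7 endothelial genes was 1645 to 11507, 2047 to 10046, 773 to 30631 and 1766 to 2397. The 3 measured epithelial genes summed to 10802 to 22177 over all tumors. No marker of these lists had 0 counts, but the lowest estimated count of a neutrophil or T cell gene was 2, with olaparib. This is within the 1 to 9 counts of Usp9y, so some markers were at background. All of these sums are on the deposited scale.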

How the data were processed

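RNA (100 ng) from snap-frozen tumor chunks was hybridized by the authors to the nCounter PanCancer Immune Profiling Panel and processed in nSolver, which corrected for background and scaled each tumor on its positive control and housekeeping probes. The deposited values are a signal: normalized probe counts on a linear scale with a floor of 1. Within each tumor they are whole multiples of 1 step (at least 99.8661% of values within 0.01 of a whole count), which gave the scaling factor and total quoted. Because 7 tumor columns could not be accepted as recovered counts, no count model was run. Genes at 20 or more in at least 3 of 12 tumors were kept (689 of 750). Log2(value + 1) was fitted in limma 3.58.1 (R 4.3.3) with 1 mean per group, and p-values were adjusted by Benjamini-Hochberg over all genes tested, with a threshold of 0.05. Fold changes on this scale understate those of low genes. The step search and the fit were tested on simulated data. Named genes were the 7 members, and the genes of the pathway lists with an unadjusted p below 0.05 against vehicle, with Il11ra1, Ebi3, Jak1, Jak2 and Jak3 added after their values were seen, to complete their lists. A gene that this rule names is not reported here. The members and lists were chosen with earlier results of these data known. Plots used matplotlib 3.10.9.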

Additional observations from a re-analysis of the deposited data

How the results depend on the processing

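No paired analysis was possible because the tumor numbers are not shared between groups. The count of members called was 0 in each of the 8 comparisons, and moved only when 1 tumor was left out: it ran from 0 to 1 for olaparib against vehicle and for the combination against olaparib, and from 0 to 3 for the interaction, each time without olaparib tumor 1521. Of 28 fold changes (all members against vehicle, and elsewhere those with an unadjusted p below 0.05 or groups that did not overlap), 16 kept their sign under each of the 10 other settings that could be applied and all 12 omissions of a tumor. The fit of the compared groups alone and the methods' t-test give no interaction. The remaining members in the other comparisons are not in this count, and some of them reversed. For ADU-S100 against vehicle, same-median scaling gave -0.18 for Il6st and -0.24 for Stat3, quantile normalization -0.035 for Il6 and -0.039 for Il6st, and the scaling factor as a term -0.89 for Il6st, while omissions took Il6st from -0.16 to 0.99. For olaparib against vehicle, Il6 was -0.22, -0.75, -0.13 and -0.75 and Osm -0.22, -0.60, -0.051 and -0.66 under same-median scaling, quantile normalization, the tumor number series as a term and the factor as a term, and Il6st was -0.75 with the factor. Omissions took Il6 from -0.48 to 0.69, Il6st from -0.42 to 1.48 and Osm from -0.42 to 0.65. For the combination against vehicle, the tumor number series as a term gave 0.015 for Il6 and 0.082 for Socs3, and omissions ran from -0.78 to 0.14 for Il6, -0.43 to 0.10 for Il6ra, -0.70 to 0.40 for Il6st, -0.42 to 0.14 for Lif, -0.60 to 0.15 for Osm and -0.44 to 0.12 for Socs3. The cause was not tested. The planned count models were not run, and a filter at 50 gave no value for Il6. The labels do not say what the series of tumor numbers (12 or 15) stands for. Vehicle tumor 1269 and combination tumors 1251 and 1270 were of series 12, and all single-agent tumors of series 15. The combination against a single agent thus cannot be fully told apart from the series. With the series as a term, genes at an unadjusted limma p below 0.05 went from 63 to 11 of 689 for the combination against ADU-S100. They went from 50 to 15 against olaparib and from 75 to 21 for the interaction.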
